A study of Marmota flaviventris with 43 samples.

Results

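The 200 genes described here varied most from one blood sample to the next among 43 RNA sequencing libraries of the yellow-bellied marmot (Marmota flaviventris). They were chosen by their standard deviation (SD) over all 43 libraries in the authors' regressed log2 values, from 7541 candidate genes of the 22389 in the count table. A candidate had a mean of at least 50 counts, had a mean length under 1000 in the authors' length column, and was not among the 100 most abundant genes of that length. The 7341 candidates left over are called the other candidates. Their large spread is therefore the basis of the choice and not a finding.

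Of the libraries, 16 came from dispersers, which the series' design text describes as yearlings that later left their birthplace, and 27 from residents, the animals that stayed. All were whole blood preserved in a stabilising solution and depleted of globin transcripts, and no treatment or genotype separates the groups in the labels. The sources used here do not give the age of residents, or the sex and sampling date of any animal. Nothing there states that each library is a separate animal, so p-values measure only the spread between these samples.

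Whole blood mixes red cells and their precursors with neutrophils, lymphocytes, monocytes and platelets, each of which carries its own set of transcripts. In mammals the mix shifts with infection, stress, age and reproduction, and inherited differences can leave a transcript nearly missing in some animals. In bulk samples such as these, fewer cells of a type and less RNA per cell cannot be told apart. The files give Ensembl gene IDs, and 0 of them matched a symbol in the reference table used here, so the genes are named by ID and blood could not be checked against marker genes.

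Total counts ranged from 4592338 to 15237506 and had a mean of 8166010 ± 2837345 in dispersers (SD, n = 16), close to the 7854047 ± 2421067 of residents (SD, n = 27; two-sided permutation test with 100000 resamples, p = 0.696). The authors removed 5 terms between their normalized and regressed tables, of which 2 take exactly 2 values over the libraries, and no source used here names them. The first of these, called the first removed term, is at 0 in 22 libraries (7 dispersers, 15 residents) and at 1 in 21 (9 dispersers, 12 residents). This term has the more even split of the 2, and 1 was assigned here to the side with the higher mean total count. Total counts were 6658375 ± 1487134 (SD, n = 22) at 0 of this term and 9344341 ± 2740260 (SD, n = 21) at 1. The direction of that difference was set by the coding. Resident replicate 8 had the most genes detected. Without it, 0 of the 200 genes passed the adjusted threshold between dispersers and residents and 12 had an unadjusted p under 0.05 in edgeR, the same numbers as with it.

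The SD of the 200 genes ran from 1.09 to 3.57 on the log2 scale with a median of 1.24, while the other candidates had a median of 0.43. The last gene inside the limit was ENSSTOG00000001057, with an SD of 1.089, and the first outside was ENSSTOG00000001152, with 1.088, so the list ends in a continuum. In plain levels, the 90th percentile over libraries exceeded the 10th by a median of 12.5-fold in the 200 genes and 3.63-fold in the other candidates, on the scale of CPM, a gene's counts scaled to a common library total. The ratio was above 8 in 166 of the 200 genes (83%) and in 6.29% of the other candidates.

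**Figure D1:**
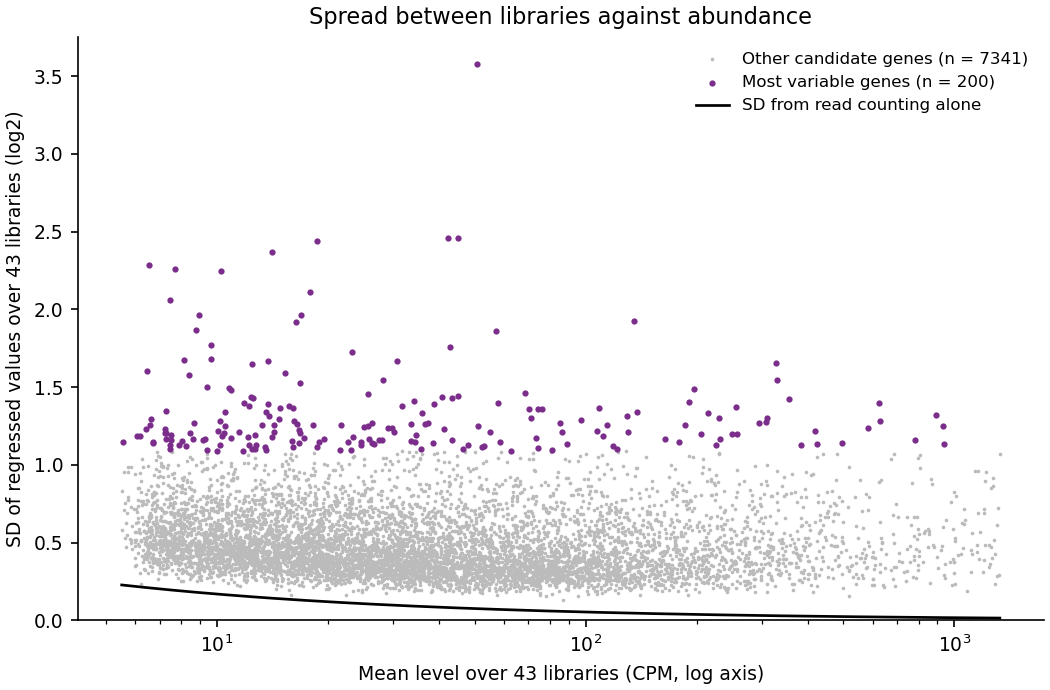
Each point is a candidate gene, with its mean CPM over 43 libraries on a log axis and the SD of its regressed log2 values on the vertical axis. The 200 genes chosen by SD lie between 1.09 and 3.57 and are found at every level of abundance.

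Counting error at the mean level of each gene was small against this spread. Computed from a gene's mean CPM, the SD that Poisson counting alone would give had a median of 0.11 in the 200 genes and was at most 0.23. Counting error is larger in libraries with few counts of a gene, and 75 of the 200 genes had 3 or fewer counts in at least 1 library. The minimum of 50 counts bounds the value at the mean level and the choice by SD sets the spread, so the comparison describes the list. It covers counting error only, since the counts carry no molecular identifiers.

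Zeros were frequent among these genes although each averaged at least 50 counts. At least 1 library had 0 counts for 36 of the 200 genes (18%), against 25 of 7341 other candidates (0.341%). In 20 of the 200 genes, 5 or more libraries had 3 or fewer counts, which held for 6 of the other candidates. A low floor and a high SD are partly the same property, so these counts describe the list.

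The list was spread over abundance, length and base composition, with more genes at high GC. When the candidates were divided by GC content into 5 bins of equal size, the highest bin, with a GC content from 59.5% upward, held 76 of the 200 genes (38%), and the lowest held 21. The median GC content was 56.3% in the 200 genes and 52.4% in the other candidates. In 5 such bins by mean CPM the lowest held 59 genes and the highest 40, and in bins by length the numbers were 34 to 47. Length had medians of 156 and 152 bases, and what the authors' column averages over is not stated.

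Per unit of length, the most abundant of the 200 genes by CPM was ENSSTOG00000023015, with a mean of 9069 RPKM (CPM per kilobase of the length column). The least abundant by CPM, ENSSTOG00000023152, had 20.7 RPKM. The median was 144 RPKM in the 200 genes and 194 in the other candidates. ENSSTOG00000023015 ran from 105.3 to 2359 CPM in dispersers and from 71.4 to 2966 CPM in residents, with medians of 921 and 689 CPM, so the groups overlapped almost fully.

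The gene with the largest SD, ENSSTOG00000016172 (SD 3.57), was close to absent in some libraries and plentiful in others. It had 0 CPM at the lowest, 14.3 CPM at the median and 90.1 CPM at the highest in dispersers, and 0, 17.7 and 583 CPM in residents. Counts were 0 to 13 in 15 libraries, of which 7 were dispersers and 8 residents, and 64 to 4778 in the other 28. Low libraries thus occurred in both groups, and in both values of the first removed term (10 at 0, 5 at 1). A count of 0, found in 5 libraries, allows a level of up to 0.396 to 0.555 CPM there (3 counts of the total).

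A similar break was seen in ENSSTOG00000009395 (SD 2.46). It had 0 CPM at the lowest, 25.1 at the median and 95.1 at the highest in dispersers, and 0.0656, 37.9 and 168 CPM in residents. In 6 libraries, 2 from dispersers and 4 from residents, it had 0 to 2 counts, and in the other 37 it had 46 to 1243 counts, or at least 8.70 CPM. No library lay between 2 and 46 counts, and the low libraries had a median total of 9546006 counts against 7441619 in the rest, although the shallowest library, with 4592338, was among them. The low libraries of the 2 genes were mostly different, with 1 library low in both.

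Such a break, of at least 2 on the log2 count scale with 5 or more libraries on each side, was found in these 2 of the 200 genes and in 0 of the 7341 other candidates. A break of at least 1 was found in 20 of the 200 genes (10%) and in 0.313% of the other candidates. A wide break raises the SD by which the 200 genes were chosen, so these numbers describe the list. ENSSTOG00000013386 (SD 2.46) had the widest break in the regressed values but not in counts, where 8 libraries had at most 18 counts and 35 had at least 30.

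The other genes at the top of the list varied in a graded way. ENSSTOG00000013386 ran from 0.185 CPM through a median of 8.26 to 261 CPM in dispersers and from 0 through 38.9 to 155 CPM in residents. ENSSTOG00000001573 (SD 2.44) ran from 0.183 through 5.40 to 80.7 CPM in dispersers and from 0 through 7.40 to 111 CPM in residents. For both genes the ranges of the groups overlapped over nearly their full width.

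ENSSTOG00000005623 (SD 2.37) ran from 0.132 through 1.89 to 107 CPM in dispersers and from 0.154 through 2.21 to 162 CPM in residents. Its median was low and a few libraries stood far above it. ENSSTOG00000001722 (SD 2.28) ran from 0 through 4.01 to 32.97 CPM in dispersers and from 0 through 2.08 to 28.2 CPM in residents, with 5 libraries at 0 counts.

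**Figure D2:**
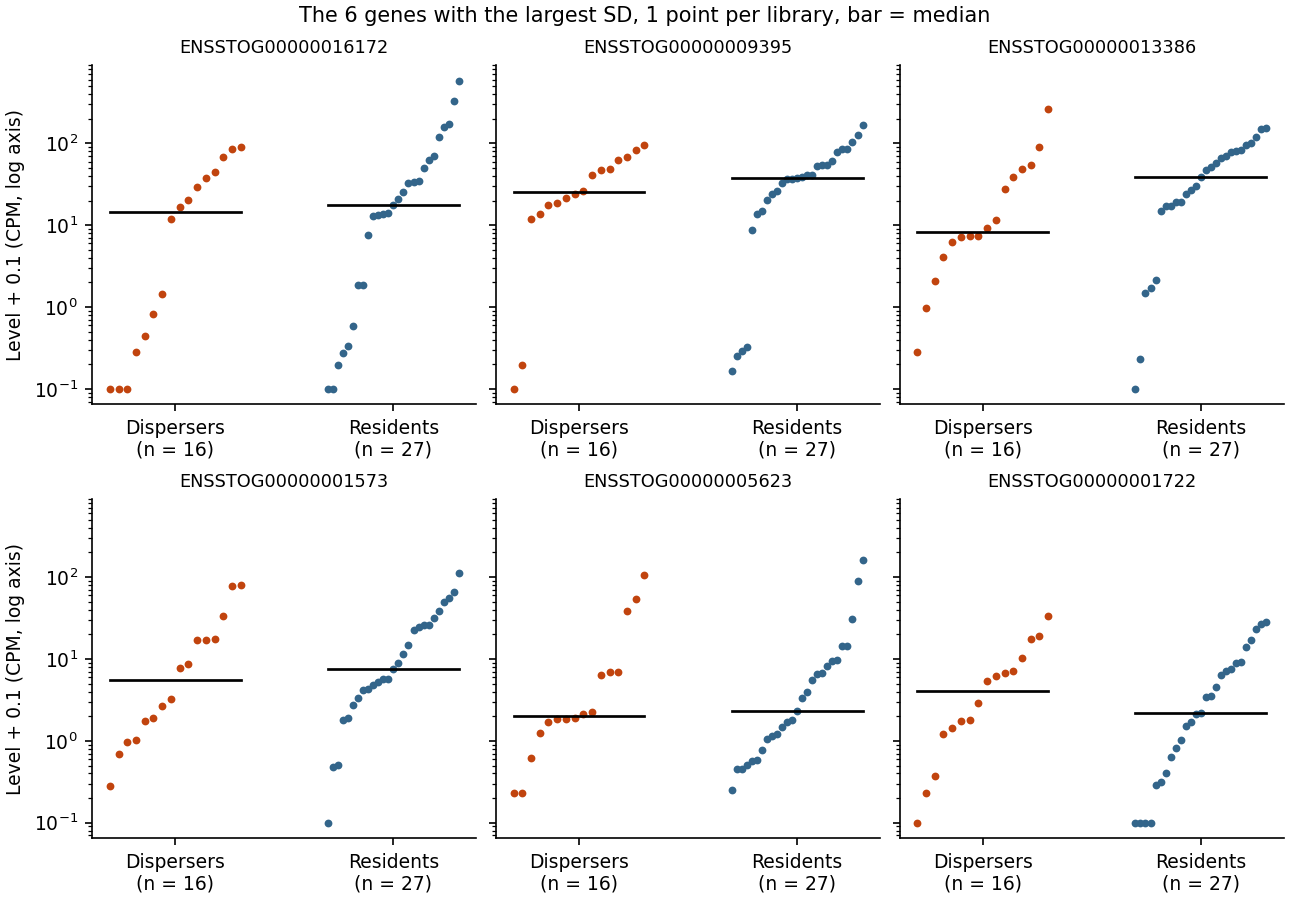
Levels of the 6 genes with the largest SD, as CPM plus 0.1 on a log axis, with 1 point per library sorted by level (16 dispersers, 27 residents) and a bar at the median. Low and high libraries occur in both groups in all 6 panels, and the break in ENSSTOG00000009395 separates 6 libraries from the other 37.

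Most of the spread did not rest on a single library. The library farthest from the mean held a median of 13.8% of a gene's sum of squares in the 200 genes and 13.95% in the other candidates, and over 30% in 6 of the 200 genes. The highest share, 35.8%, was in ENSSTOG00000023862, which had 1 count (0.178 CPM) in resident replicate 7 and 1.71 to 59.2 CPM elsewhere. Without that library its SD was 1.02, under the limit of the list.

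For the 2 genes next in that order, the distant library had no count. ENSSTOG00000012856 had 0 counts in disperser replicate 12, which allows up to 0.555 CPM, and 0.975 to 46.9 CPM elsewhere. ENSSTOG00000024967 had 0 counts in disperser replicate 7, which allows up to 0.501 CPM, and 2.07 to 78.2 CPM elsewhere. In both genes the low library lay below the range of the other 42, by an amount that a count of 0 does not fix. Without its low library ENSSTOG00000012856 had an SD of 0.977, under the limit of the list, and ENSSTOG00000024967 had 1.12, above it.

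Some libraries took the extreme position for many genes at once. Resident replicate 17 was the highest library for 36 of the 200 genes, resident replicate 21 for 33 and resident replicate 6 for 23. Disperser replicate 8 was the lowest library for 32 genes, and resident replicates 2 and 23 for 18 each. The mean absolute regressed value of the 200 genes ran from 0.631 to 1.54 over the libraries, against 0.261 to 0.536 in the other candidates.

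Part of the 200 genes varied together. Over their 19900 pairs the correlation of regressed values across the 43 libraries had a median of 0.19 and ran from -0.73 to 0.99, and it exceeded 0.7 in 1797 pairs (9.03%). Pairs of the other candidates had a median of 0.0023 and exceeded 0.7 in 1.88%. A correlation under -0.5 was rarer in the 200 genes, with 0.578% of pairs against 5.53%. All pairs share the same libraries and their scaling. The counting SD at the mean level exceeded the SD divided by 4 in 0 of the 200 genes and in 40.7% of the other candidates. Its part in the difference between these pairs was not tested. Average-linkage clustering at a correlation of 0.5 gave 3 groups of 10 or more genes, which held 118 of the 200. Another 82 genes, 31 of them alone, lay outside, among them 4 of the 6 genes with the largest SD.

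Group 1, with 69 genes, was the largest and had a median correlation of 0.74 between its members. Its mean regressed value ran from -2.12 in resident replicate 16 to 2.26 in resident replicate 21. The gene closest to all others in the group was ENSSTOG00000013370 (mean correlation 0.82 with its fellow members). It ran from 293 through 1038 to 1680 CPM in dispersers and from 59.5 through 527 to 2247 CPM in residents, where both the lowest and the highest library lay. Outside the list, 187 other candidates and 23 of the 100 most abundant genes had a correlation above 0.7 with the mean of group 1.

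Group 2, with 34 genes, was marked by its base composition. Its median GC content was 65.4%, its members ran from 54.4% to 73.7%, and their median correlation was 0.64. The central gene, ENSSTOG00000021236, ran from 0.370 through 68.1 to 323 CPM in dispersers and from 1.51 through 93.7 to 496 CPM in residents. The removed terms held a median of 58.9% of the variance of the members of group 2 in the normalized table, compared with 36.2% over the 200 genes and 44.8% over the other candidates. Outside the list, 475 other candidates and 7 of the 100 most abundant genes had a correlation above 0.7 with the mean of group 2. Another 66 other candidates had a correlation below -0.7 with it.

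Group 3, with 15 genes, had a median GC content of 49.8% and a median correlation of 0.62. Its central gene, ENSSTOG00000005022, ran from 155 through 385 to 1173 CPM in dispersers and from 63.2 through 240 to 2799 CPM in residents. Its mean correlated above 0.7 with 180 other candidates and below -0.7 with 131, so genes outside the list moved against it as well as with it. The means of the 3 groups were themselves correlated, at 0.36 for groups 1 and 2, 0.51 for groups 1 and 3 and 0.49 for groups 2 and 3 (n = 43 libraries).

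**Figure D3:**
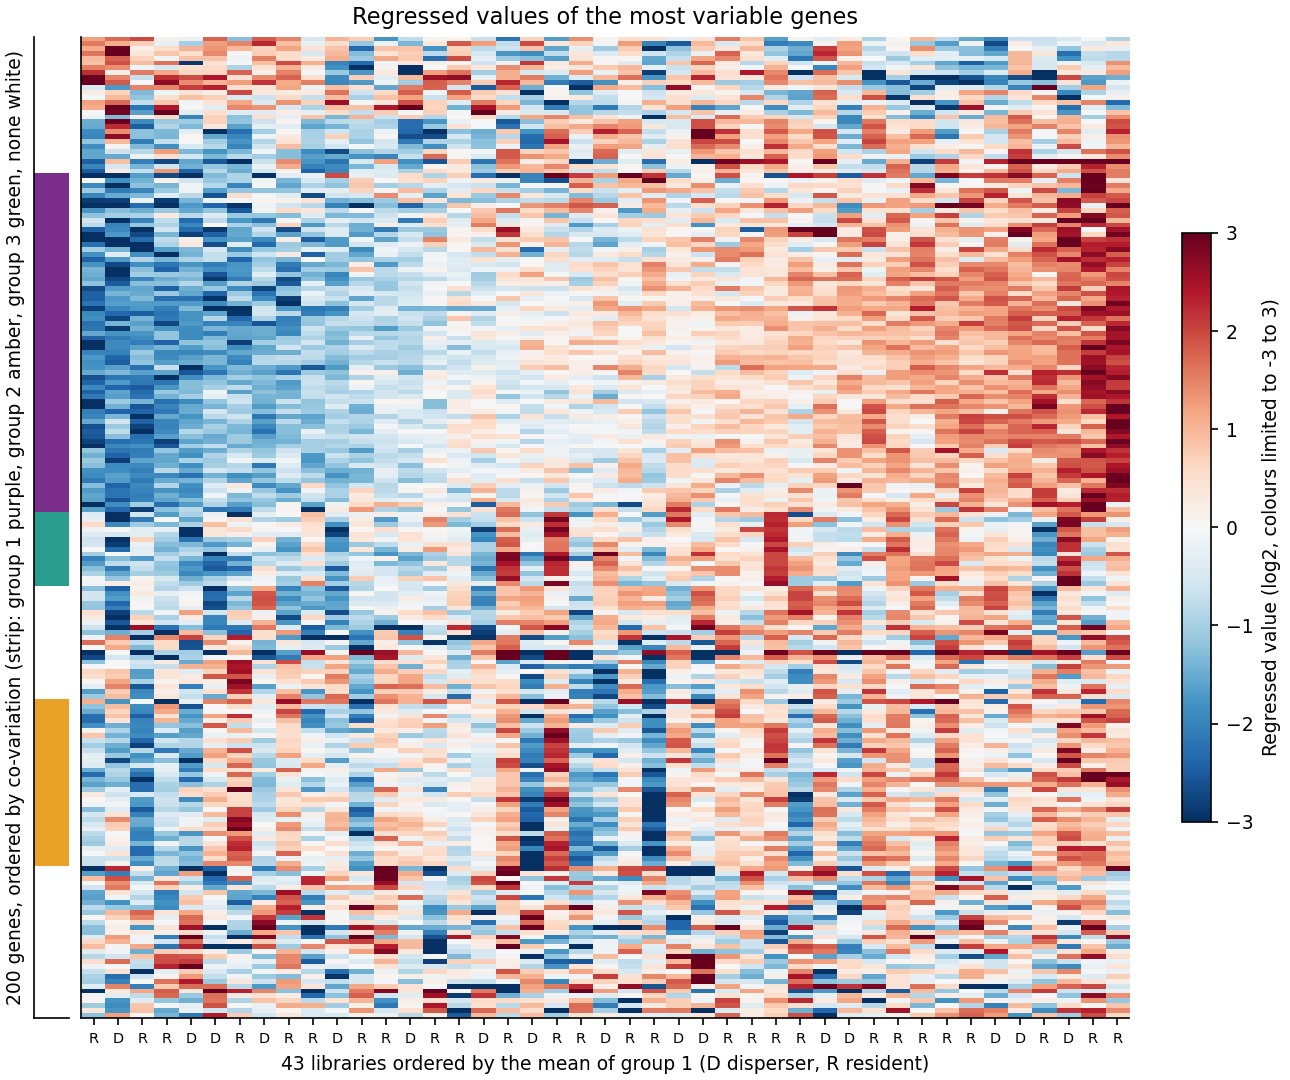
Regressed log2 values of the 200 genes (rows, ordered by co-variation, with a strip for the groups) in 43 libraries (columns, ordered by the mean of group 1, D for disperser and R for resident), with colours cut at 3. The 69 genes of group 1 change together from left to right, and dispersers and residents are mixed along that order.

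A pair chosen after its values were seen, ENSSTOG00000023745 and ENSSTOG00000025862, had the highest correlation (0.99). Both have a GC content of about 56% (55.8% and 55.9%), and the log2 ratio of their counts stayed between -3.96 and -3.15 over all libraries. Whether reads are shared between near-identical copies was not tested, so their levels are uncertain.

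The levels of the groups moved with properties of the libraries. In the normalized values, the mean of group 1 correlated with the percentage of all counts that fell in the 10 most abundant genes at Pearson's r = 0.87 and Spearman's rho = 0.91 (n = 43), and at r = 0.85 without the 2 libraries farthest from the median share. Within dispersers r was 0.88 and within residents 0.89, and within the first removed term it was 0.79 at 0 and 0.93 at 1. In the regressed values it was 0.66. None of the 100 most abundant genes is in the list, but they share libraries and the total that scales the values, and these are descriptions with no test.

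The mean of group 2 correlated with the count-weighted GC content of the library, which ran from 49.96% to 56.0%. The correlation was r = 0.91 and rho = 0.84 (n = 43), and r = 0.89 without the 2 farthest libraries. Library GC is computed from the same counts and the genes of group 2 are rich in GC. The correlation is therefore partly built in and is a description with no test. Within the first removed term r was 0.90 at 0 and 0.30 at 1, where library GC spanned only 54.1% to 56.0%. In the regressed values the pooled r was 0.32. The mean of group 3 correlated with the share of the 10 most abundant genes at r = 0.56 and rho = 0.65.

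The first removed term nearly separated the libraries by group 2. Its mean in the normalized values, centred per gene, ran from -4.27 to 0.78 in the 22 libraries at 0 and from -0.03 to 3.08 in the 21 libraries at 1. Dispersers and residents had similar medians at each value, of -0.78 and -0.79 at 0, and of 1.11 and 1.38 at 1.

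**Figure D4:**
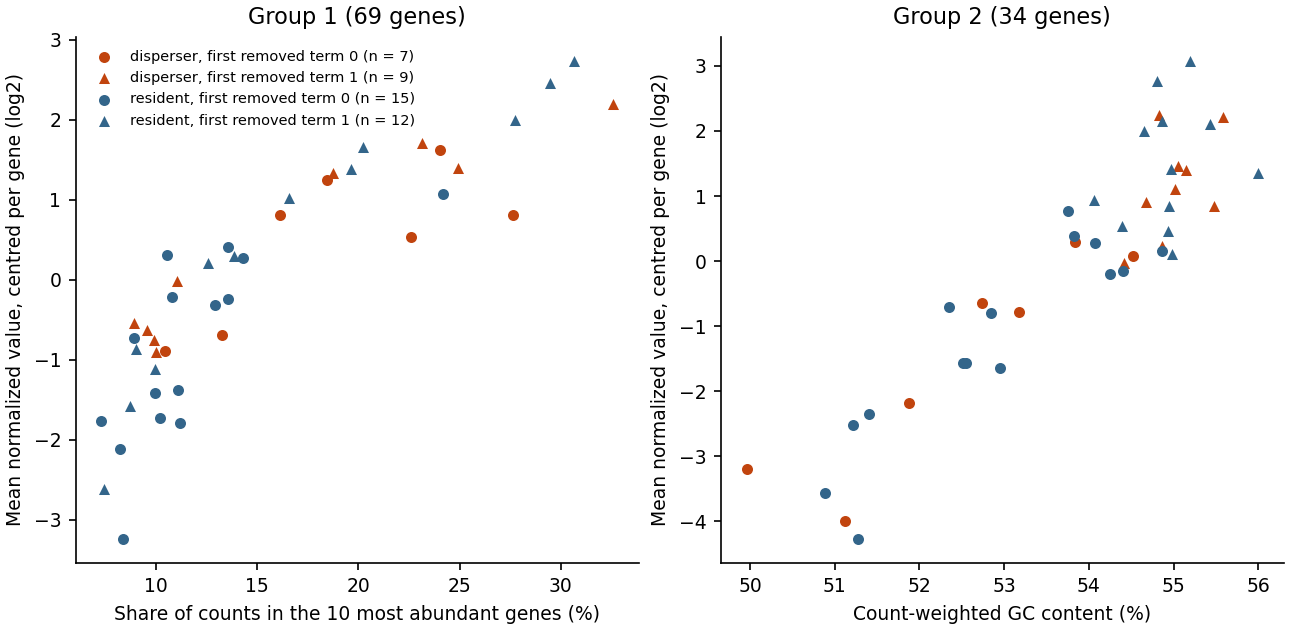
Mean normalized log2 values of group 1 against the percentage of counts taken by the 10 most abundant genes, and of group 2 against the GC content of the library, with 1 point per library. Correlations are 0.87 and 0.91 over 43 libraries. For group 2, most points at 0 of the first removed term lie below those at 1, and the ranges overlap.

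Dispersers and residents, the groups the study was built around, did not separate in these genes. With edgeR's quasi-likelihood test on the counts, 0 of the 200 genes passed an adjusted p of 0.05, and every adjusted p was at least 0.99977. Over all 10921 genes tested, 0% passed. DESeq2 and limma on both log2 tables also called 0 of the 200. At an unadjusted p under 0.05, edgeR counted 12 of the 200 genes (6%), where 2.6% of all genes did so. DESeq2 counted 13 (6.5%, against 2.66% of all genes), and edgeR with scaling by total count 20 (10%, against 3.31%). Limma counted 18 in the normalized table (9%, against 2.45%) and 5 in the regressed table (2.5%, against 6.41%), so the share there was below the background. The 12 genes of the edgeR test comprised 9 higher in dispersers, where the background was 1.12%, and 3 lower, where it was 1.48%. The SD that chose the 200 genes includes any difference between dispersers and residents. Their shares at an unadjusted p, here and below, therefore describe the list.

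The median log2 fold change of the 200 genes was 0.10, with 121 higher and 79 lower in dispersers, and that of all genes tested was -0.0094. With the removed terms as covariates the median was -0.25, and 142 of the 200 genes were lower. That fit had 23 genes at an unadjusted p under 0.05 (11.5%), close to the 11.1% of all genes. Of these, 4 were higher in dispersers (2%, against 6.48% of all genes) and 19 lower (9.5%, against 4.6%). By adjusted p, 0 of the 200 passed. The median standard error of a fold change was 0.47 in the 200 genes and 0.22 over all genes. A difference of more than 2-fold was estimated for 16 of the 200 genes, which make up part of the 39 such genes in all.

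The spread within each group was similar in size. The ratio of the SD in dispersers to that in residents had a median of 1.01 in the 200 genes and 1.00 in the other candidates, and 102 of the 200 genes had the higher SD in dispersers. In dispersers the 200 genes summed to 1.84% ± 0.592 of all counts (SD, n = 16) and in residents to 1.62% ± 1.04 (SD, n = 27), with medians of 1.90% and 1.24%. Both the lowest share, 0.394%, and the highest, 3.74%, were in residents.

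The 2 genes with the smallest p-values in each direction are given with the weight of single libraries. ENSSTOG00000014731 had 0.518 CPM at the lowest, 4.86 at the median and 15.1 at the highest in dispersers, against 1.10, 11.4 and 53.9 CPM in residents. Dispersers differed from residents by a log2 fold change of -1.43 (SE 0.39; edgeR, p = 0.000756, adjusted p = 0.9998), and 14 of 16 dispersers lay below the resident median. Leaving out any 1 library kept it between -1.58 and -1.30.

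ENSSTOG00000007570 had 0, 2.60 and 11.9 CPM at the lowest, median and highest disperser and 0.467, 2.63 and 240 CPM in residents. Its log2 fold change of -2.08 (SE 0.72; edgeR, p = 0.00598, adjusted p = 0.9998) became -0.52 without resident replicate 13, the library at 240 CPM. The medians of the groups were nearly equal, with 8 of 16 dispersers on each side of the resident median.

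ENSSTOG00000009831 had 2.27, 14.6 and 212 CPM in dispersers and 3.87, 11.9 and 94.2 CPM in residents. Dispersers differed from residents by a log2 fold change of 1.28 (SE 0.39; edgeR, p = 0.00208, adjusted p = 0.9998). This became 0.88 without disperser replicate 1 (177 CPM) and 0.90 without disperser replicate 10 (212 CPM), and no fit left out both. ENSSTOG00000019402 had 0.841, 3.41 and 84.1 CPM in dispersers and 0.488, 4.01 and 18.4 CPM in residents. Its log2 fold change of 1.26 (SE 0.42; edgeR, p = 0.00448, adjusted p = 0.9998) became 0.47 without disperser replicate 1, the library at 84.1 CPM, and the disperser median lay below that of residents.

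The median contrast had opposite signs at the 2 values of the first removed term. Among the 22 libraries at 0, the median log2 fold change of the 199 genes tested was 0.57 and 70 had an unadjusted p under 0.05 in edgeR (63 higher, 7 lower in dispersers), or 35.2%, against 8.02% of all genes. Among the 21 libraries at 1, the median was -0.38 and 16 of 200 genes did so (4 higher, 12 lower), or 8%, against 2.81% of all genes. By adjusted p, 0 of the 200 passed at either value. The genes were chosen by their spread over these same libraries and many vary together, so the shares describe the list and do not count independent genes.

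Group 1 held 45 of these 70 genes. Over all libraries 62 of its 69 genes were higher in dispersers (median 0.28), but 57 were lower with the removed terms as covariates (median -0.24), and 0 passed by adjusted p in either fit. At 0 of the term, 66 of its 69 genes were higher in dispersers with a median log2 fold change of 1.20. An unadjusted p under 0.05 was found for 45 of them (65.2%, against 8.02% of all genes). Without disperser replicate 4 this count was 26 and without resident replicate 2 it was 58, with medians between 0.98 and 1.41. Of all 11054 genes tested without disperser replicate 4, 531 were higher and 307 lower at that p. Without resident replicate 2, 762 were higher and 399 lower of 10905, and 3 genes passed by adjusted p, with 0 of the 200 among them. At 1 of the term, 57 of 69 were lower with a median of -0.41, and 2 had an unadjusted p under 0.05 (2.90%, against 2.81% of all genes). Leaving out 1 library there moved the median between -0.68 without disperser replicate 13 and -0.15 without resident replicate 17.

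The percentage of counts taken by the 10 most abundant genes moved the same way. Its median was 18.5% in dispersers and 10.8% in residents at 0 of the term, and 11.03% and 15.2% at 1. The mean of group 1 in the normalized values had a median of 0.81 in the 7 dispersers (from -0.89 to 1.63) and -0.73 in the 15 residents (from -3.24 to 1.08) at 0, so the ranges overlapped. At 1 the medians were -0.02 in the 9 dispersers (from -0.90 to 2.20) and 0.66 in the 12 residents (from -2.61 to 2.74), with dispersers inside the range of residents. The part of the 10 most abundant genes in the contrast was not tested.

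Tested as an interaction of group and term with edgeR, the difference between the contrasts passed an adjusted p of 0.05 in 0 of the 200 genes and in 0% of all genes, and the smallest adjusted p was 0.253, for ENSSTOG00000023862. At an unadjusted p under 0.05 there were 38 of the 200 genes (19%), 35 of them negative and 25 in group 1, against 7.87% of all genes. The median interaction was -0.85 in the 200 genes and 0.0048 over all genes. As with the contrasts, these values describe a list chosen by spread over the same libraries.

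The contrasts of groups 2 and 3 were not called either. Over all libraries their median log2 fold changes were -0.21 and -0.22, with 26 of 34 and 14 of 15 genes lower in dispersers. At 0 of the term they were -0.22 and 0.31, and at 1 they were -0.53 and -0.69. Without resident replicate 6 the median of group 2 was 0.03 and that of group 3 was 0.0015, so leaving out 1 library changed the sign. The sign also differed between scales with every library kept. Limma on the normalized table gave medians of 0.011 and 0.18, with 18 of 34 and 9 of 15 genes higher in dispersers. On the regressed table it gave -0.33 and -0.47. With the removed terms as covariates, 34 of 34 genes in group 2 and 15 of 15 in group 3 were lower, 13 (38.2%) and 2 (13.3%) of them at an unadjusted p under 0.05 in edgeR, where 11.1% of all genes were, and 0 passed by adjusted p.

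**Figure D5:**
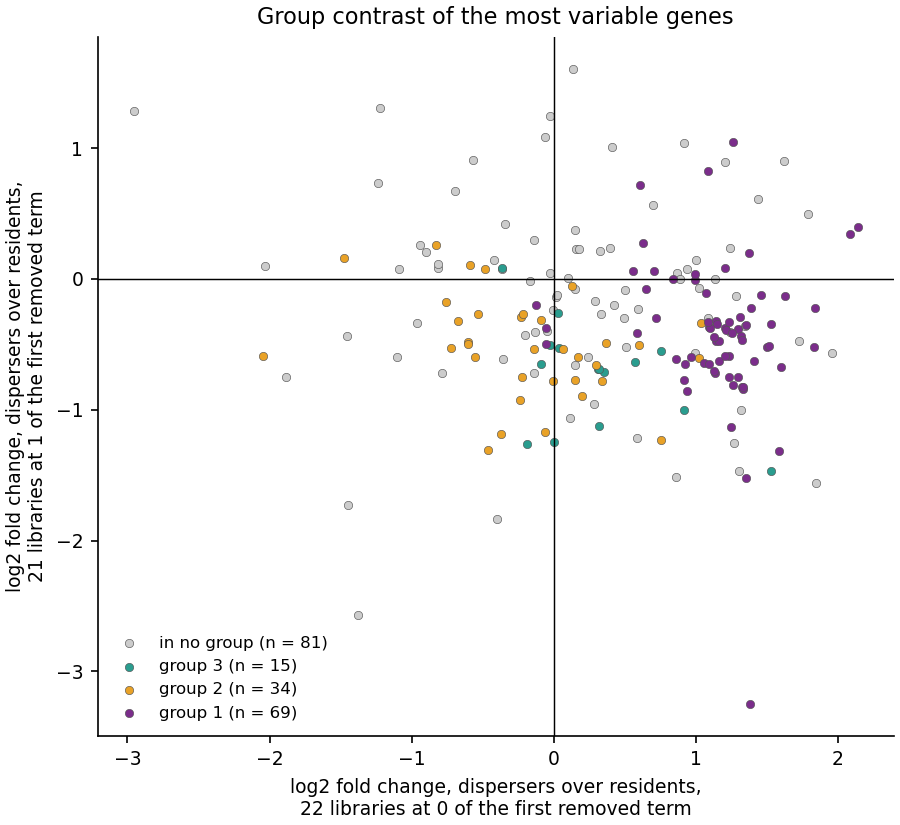
The log2 fold change of the 199 genes tested at both values, dispersers over residents, over the 22 libraries where the first removed term is 0 (horizontal) and the 21 where it is 1 (vertical), coloured by group. Genes of group 1 lie mostly at the lower right, with medians of 1.20 and -0.41.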

How the data were processed

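Per the labels' protocols, RNA from preserved whole blood was depleted of globin transcripts and pooled libraries were sequenced. The submitters' processing notes name limma, HTSeq, TopHat2 2.1.0 and Trim Galore 0.3.1, and the genome build is not given in the sources used here. The authors deposited whole-number counts for 22389 genes (2039 with no count) beside columns for each gene's mean length and GC fraction. Their 2 deposited tables of log2 values hold 11381 genes. The first equals log2(RPKM + 0.5) plus a constant per library, to within 3.85e-08. The second holds residuals after 5 terms were removed, which were recovered here as the difference between the tables.

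The rule that defines the 200 genes was applied to the deposited tables, and 21578 IDs had a length under 1000. Members, lists and tests were chosen with earlier results of these data known. Groups come from the dispersal label. Counts were tested with edgeR 4.0.16 in R 4.3.3 (filterByExpr, minimum count 10, TMM, robust quasi-likelihood, Benjamini-Hochberg over all genes), with DESeq2 1.42.0 and limma 3.58.1 as alternatives. Others were different scaling, no filter, the removed terms as covariates and each library left out. Fits within the first removed term and their interaction were added after seeing the data. Genes were named by rule: the 6 largest SDs, the 2 smallest p-values in each direction, the 3 largest single-library shares, the 3 widest breaks, the centre of each co-variation group, the limits of the list and the extremes of abundance. Marker lists could not be used without gene names. No duplicated library was found (smallest chi-square per degree of freedom between 2 libraries 20.7). Python 3.11.15 was used for the descriptions. Scripts were tested on simulated data.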

Additional observations from a re-analysis of the deposited data

How the results depend on the processing

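The choice of list depended on the scale. Of the 200 genes, 110 were also among the 200 largest SDs in the normalized table, 93 by the SD of log2(CPM + 1) and 95 with a minimum mean count of 200. The list shared 150 genes with one ranked by median absolute deviation, and 188 to 199 when 1 library was left out. The number of genes in co-variation groups was 93 to 143 under 4 other settings, against 118. The number of groups changed too, to 4 with the tree cut at a correlation of 0.4 and to 2 in the normalized table. It stayed at 3 with the cut at 0.6 and with Spearman's rho. By adjusted p, 0 of the 200 genes passed between dispersers and residents under any of the 10 alternatives or without any 1 library. The 12 genes at an unadjusted p under 0.05 became 20 with scaling by total count (against 3.31% of all genes), 23 with the removed terms as covariates (against 11.1%), 5 with limma on the regressed table (against 6.41%) and 70 where the first removed term is 0 (against 8.02%), and 9 to 19 with 1 library left out. The median log2 fold change of 0.10 became -0.25 with the removed terms as covariates, -0.17 with limma on the regressed table and 0.33 with limma on the normalized table. It was -0.38 where the first removed term is 1 and 0.57 where it is 0. With 1 library left out it ran from -0.016, without disperser replicate 13, to 0.26, without resident replicate 17. The cause was not tested. Scaling by total count moved the median of all genes from -0.0094 to -0.13, and that of group 1 at 0 and 1 of the term to 1.00 and -0.25. No paired analysis was possible because replicate numbers follow accession order and pair no samples. Depth limits the genes with libraries at 0 counts, where a level under 3 counts of the total cannot be told from 0.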
